A study of Mus musculus with 8 samples.

Results

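The mitochondrial respiratory chain subunits are the nuclear-encoded proteins of complexes I to IV, cytochrome c and the ATP synthase (complex V), and their transcripts were compared between glycerol kinase knockout and wild-type mouse liver. Members were the genes whose symbol carries 1 of the family names Ndufa, b, c, s or v, Sdha to Sdhd, Uqcr, Cyc1, Cycs, Cox4 to Cox8 or Atp5, and each was represented by its probe set with the highest mean signal over all arrays. The rule gave 82 of the 18193 genes named on the array: 33 of complex I, 4 of complex II, 9 of complex III, cytochrome c, 17 of complex IV, 17 of complex V and Cox7a2l, which is an assembly factor of supercomplexes and no fixed subunit. Of the 82 members, 75 passed the signal minimum for testing, which was 200 on at least 4 of the 8 arrays, and these 75 were at or above 200 on all 8 arrays, so that none passed through 1 group alone. Subunits encoded in mitochondrial DNA were not matched to a probe set and are not analysed here.

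Liver RNA came from 4 pups that lack glycerol kinase and from 4 age-matched wild-type littermates, given in the labels as inbred C57BL/6J males on day of life 3, when the knockout pups have low blood glucose and acidosis. Glycerol kinase is encoded on the X chromosome and makes glycerol 3-phosphate from glycerol. Each liver was processed individually and hybridised to 1 Affymetrix Mouse 430 2.0 array, which reads a transcript with a probe set, a group of short probes. The knockout allele is not described in the labels beyond its name, and 0 probe sets were paired with the Gk gene by the annotation used here, so the deletion was not checked.

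The respiratory chain passes electrons from NADH at complex I and from succinate at complex II through coenzyme Q, complex III and cytochrome c to oxygen at complex IV. Complexes I, III and IV pump protons out of the matrix, and the ATP synthase uses their return to make ATP. Glycerol 3-phosphate also feeds electrons into coenzyme Q, by way of the mitochondrial glycerol 3-phosphate dehydrogenase Gpd2. In the newborn liver the chain is known for supplying ATP to glucose and urea synthesis, and its nuclear genes are known as targets of the factors NRF1, GABPA (which binds ETS motifs), YY1 and the estrogen-related receptors, with PGC-1alpha (Ppargc1a) as their coactivator.

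The promoter stretches of the members with the smallest p in each complex are shown here because the values below return to these 5 genes. Each is the 150 bases before the RefSeq transcription start (assembly GRCm38.p6), 5′ to 3′ on the gene's strand, with the 6-letter core of the ETS motif, CCGGAA on either strand, in capitals. The stretches lie at chr19:4012756-4012905 on the minus strand for Ndufv1, chr9:50603850-50603999 minus for Sdhd, chr13:30545317-30545466 minus for Uqcrfs1, chr9:57521082-57521231 plus for Cox5a and chr2:10080511-10080660 minus for Atp5c1, the more upstream of 2 windows of that gene.
Ndufv1: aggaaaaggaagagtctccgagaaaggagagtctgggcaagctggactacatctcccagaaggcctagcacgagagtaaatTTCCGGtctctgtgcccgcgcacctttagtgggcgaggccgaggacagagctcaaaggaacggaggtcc
Sdhd: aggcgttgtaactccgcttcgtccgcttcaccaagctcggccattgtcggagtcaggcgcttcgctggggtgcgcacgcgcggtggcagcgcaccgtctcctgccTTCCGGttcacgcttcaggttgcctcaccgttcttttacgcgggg
Uqcrfs1: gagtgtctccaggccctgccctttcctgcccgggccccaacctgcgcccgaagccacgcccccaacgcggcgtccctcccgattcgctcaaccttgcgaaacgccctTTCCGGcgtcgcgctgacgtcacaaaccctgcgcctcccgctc
Cox5a: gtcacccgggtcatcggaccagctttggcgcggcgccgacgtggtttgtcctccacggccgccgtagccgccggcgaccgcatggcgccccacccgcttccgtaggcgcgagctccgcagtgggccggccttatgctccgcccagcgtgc
Atp5c1: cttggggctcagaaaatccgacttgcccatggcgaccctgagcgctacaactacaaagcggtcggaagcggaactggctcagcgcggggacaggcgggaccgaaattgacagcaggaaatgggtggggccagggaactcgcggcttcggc
The core begins 69 bases before the start in Ndufv1, 45 in Sdhd and 43 in Uqcrfs1, and those letters are not in the stretches of Cox5a and Atp5c1. Windows of 250 bases before to 50 after the start were found for 67 of the 82 members, and of these 26 (38.8%) held CCGGAA, against 16.7% of all 27025 genes with a window and 30.8% of the genes with a tested probe set. Among the tested members the median log2 fold change, knockout minus wild type, was 0.26 for the 26 with the core and 0.23 for the 36 without it. The longer ETS motif CCGGAAGT was in 5 members (7.46%, against 4.31% of all genes and 8.93% of the tested ones). Their median log2 fold change was 0.36, against 0.22 for the 57 tested members without it. The NRF1 core GCATGCGC was in the windows of 10 members (14.9%, against 3.05% of all genes and 5.93% of the tested ones), whose median log2 fold change was 0.20, against 0.24 for the 52 tested members without it. The YY1 core AAGATGGC was in 9 members (13.4%, against 3.19% and 5.30%), with a median of 0.20 against 0.24 for the 53 without it. The estrogen-related receptor motif TCAAGGTCA was in 2, Sdhd and Atp5g3 (2.99%, against 0.466% and 0.317%). The median of these 2 was 0.33, against 0.24 for the 60 without it. Each motif was searched on both strands, and a match describes letters only. The longer ETS motif contains the 6-letter core, so its 5 members are also among the 26 with the core. The letters of different factors do not contain one another.

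The arrays had a trimmed mean signal of 500.0 each, a median of 147.0 to 174.6, and 42.6% to 46.7% of probe sets at or above 200. The ratio of 3′ to 5′ signal of the transferrin receptor control, a measure of RNA length, was 6.50 to 6.72 on replicates 1 and 2 of both groups and 4.21 to 4.83 on replicates 3 and 4. That of pyruvate carboxylase was 7.03 on knockout 1 and 4.93 on knockout 2, against 2.06 to 3.46 on the other 6 arrays, and that of actin was 1.74 on knockout 1 against 1.21 to 1.32. The Gapdh control differed little, with 0.896 on knockout 1 and 0.765 to 0.886 on the others. The labels give no batch. The array labelled wild type 4 had an Xist signal of 10506 against 196.4 to 396.3 on the others and an Eif2s3y signal of 1.3 against 685.1 to 1164, which goes against its label as male. Without that array the members' median log2 fold change was 0.23, against 0.24 with it. Hepatocyte markers, which define the labelled tissue, had a summed signal of at least 156680 on every array, with 9 of 11 tested.

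No member passed the test at 4 against 4 arrays. With limma and Benjamini-Hochberg adjustment over 20395 probe sets, 0 of the 75 members had an adjusted p under 0.05 in either direction (smallest 0.0826, largest 0.942), where 30 probe sets of all tested (0.147%) were called higher in the knockout and 31 (0.152%) lower. The estimates nevertheless lay to 1 side. Of the 75 members 72 had a log2 fold change above 0 (96.0%, against 45.8% of all tested probe sets), and their median was 0.24 against -0.03 for all tested. At an unadjusted p under 0.05 there were 24 members, all with higher knockout means, where 7.12% of all tested probe sets were higher and 7.32% lower at that cutoff. All 4 knockout arrays were above all 4 wild-type arrays for 13 members, against 4.47% of all tested probe sets, and below them for 0, against 4.85%. These 13 were Ndufa3, Ndufc1 and Ndufs1 of complex I, Sdhc of complex II, Cyc1, Uqcr10, Uqcrc2 and Uqcrfs1 of complex III, Cox5a of complex IV, and Atp5c1, Atp5g1, Atp5h and Atp5o of complex V. For a further 19 members, 3 of the 4 knockout arrays were above the highest wild-type array, against 6.98% of all tested probe sets. Quantile normalization lowered the median to 0.13, with 65 of 75 above 0, and leaving out knockout 1 lowered it to 0.16, also with 65 above 0. Of the 72 members with estimates above 0, 40 were more than 1.5 times lower without knockout 1, counting 7 that were then at or below 0. Members share array, liver and scaling and are therefore not independent of each other. In whole liver, a change in the share of a cell type and a change in RNA per cell cannot be told apart.

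**Figure D1:**
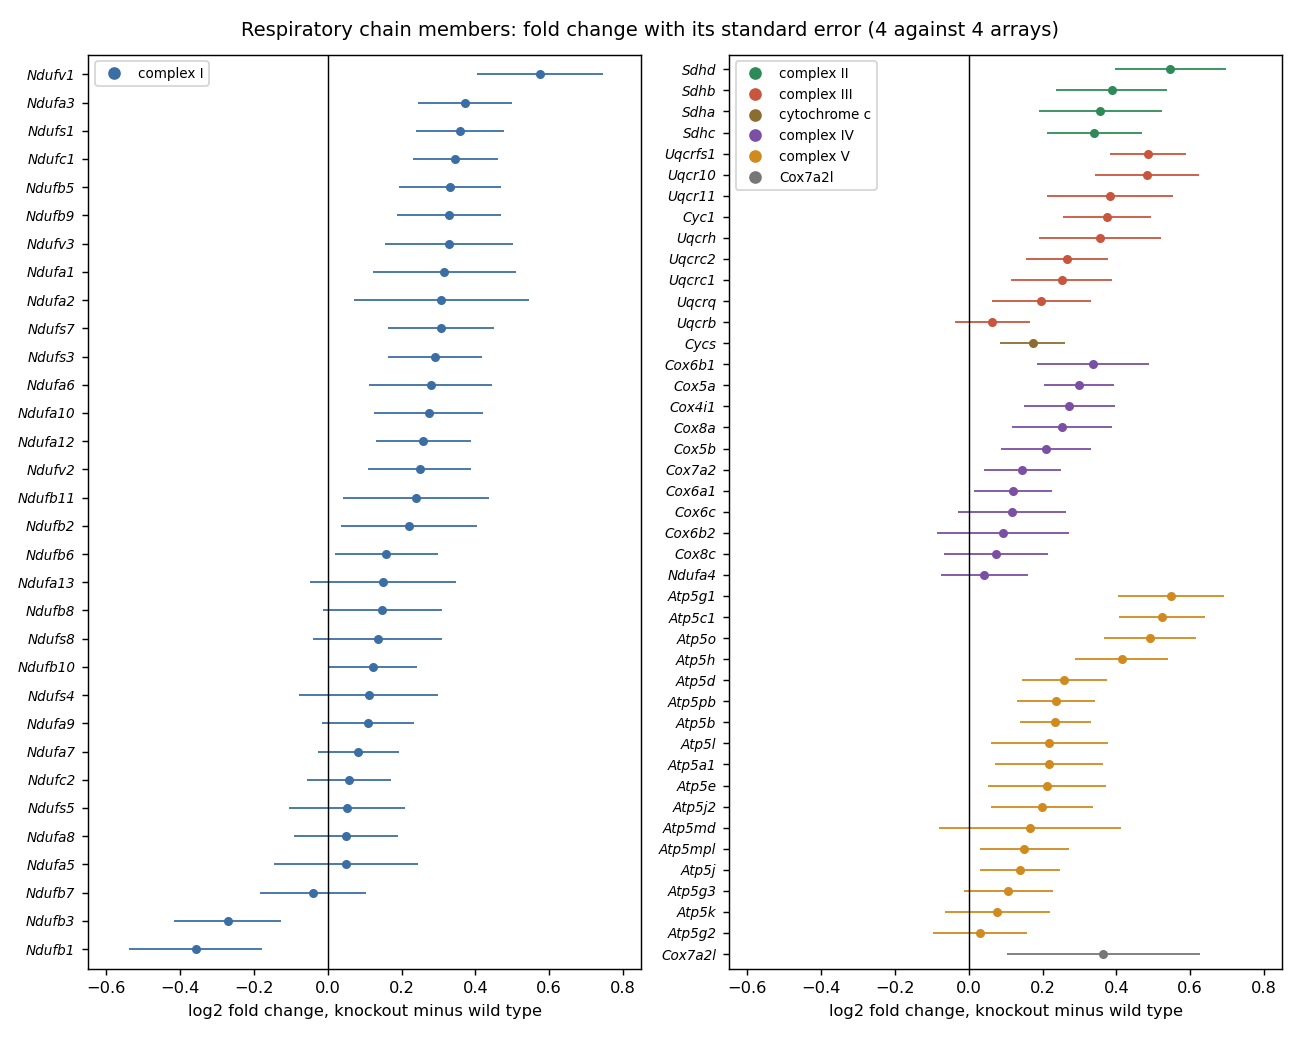
Log2 fold change, knockout minus wild type, of the 75 tested members (points) with limma's standard error (bars), complex I on the left and complexes II to V, cytochrome c and Cox7a2l on the right, 4 arrays against 4. The points lie right of 0 for 72 members, and Ndufb1, Ndufb3 and Ndufb7 lie left of it.

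Complex I takes electrons from NADH, with 6 core subunits and 26 accessory subunits tested here. Its median log2 fold change was 0.23, with 29 of 32 above 0, 7 at an unadjusted p under 0.05 and 0 called. The core subunits, which carry the flavin and the iron-sulfur clusters or hold them in place, had a median of 0.30 with 6 of 6 above 0. The accessory subunits had a median of 0.15 with 23 of 26 above 0. Without knockout 1 the median of the complex was 0.11.

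Ndufv1 binds NADH and the flavin at the tip of the complex. Its signal was 3636, 4250.2, 4484 and 4810.4 on wild-type arrays 1 to 4 and 7639.9, 6371, 7361 and 4595 on knockout arrays 1 to 4. Knockouts 1 to 3 were above every wild-type array, and knockout 4 lay below wild type 4. The means were 4295 ± 496 in wild type and 6492 ± 1377 in knockout (SD, n = 4 each), 1.51-fold, with a log2 fold change of 0.57 ± 0.17 (limma adjusted p = 0.169). Without knockout 4 its log2 fold change was 0.73 with a limma adjusted p of 0.0406, the only member called in any of the alternatives, where 1.03% of all tested probe sets were called higher. Its other 2 probe sets gave 0.51 and 0.60.

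Ndufs1, the largest core subunit and a holder of iron-sulfur clusters, read 2559, 2443, 2588 and 2676 on wild-type arrays 1 to 4 and 3581, 3496, 3294 and 2850.4 on knockout arrays 1 to 4. The groups did not overlap, and the log2 fold change was 0.36 ± 0.12 (limma adjusted p = 0.215). Ndufc1, a small membrane accessory subunit, read 5463, 5874, 6027 and 6134 on wild-type arrays 1 to 4 and 8591, 7460.2, 7534 and 6421 on knockout arrays 1 to 4. All knockout arrays were higher here too, with 0.35 ± 0.12 (limma adjusted p = 0.214), and its other probe set gave 0.51 ± 0.11 (limma adjusted p = 0.0927). Ndufa3, also a membrane accessory subunit, read 7544, 8516, 8212 and 7801 on wild-type arrays 1 to 4 and 12855, 10409.9, 9947 and 8669 on knockout arrays 1 to 4. Its highest wild-type array lay just under knockout 4, and the log2 fold change was 0.37 ± 0.13 (limma adjusted p = 0.222).

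The members with estimates below 0 were all accessory subunits of the membrane arm. Ndufb1 read 416.4, 326.6, 303.0 and 374.4 on wild-type arrays 1 to 4 and 212.4, 269.4, 295.2 and 320.4 on knockout arrays 1 to 4, with a log2 fold change of -0.36 ± 0.18 (limma adjusted p = 0.397). Knockouts 1 to 3 were under every wild-type array and knockout 4 was not. Ndufb3 gave -0.27 ± 0.15 (limma adjusted p = 0.429) and Ndufb7 gave -0.04 ± 0.14 (limma adjusted p = 0.929). For Ndufb3, 3 knockout arrays lay under the wild-type range of 2219 to 3077 and knockout 2, at 2393, lay within it. The X-linked subunits Ndufa1 and Ndufb11 had log2 fold changes of 0.32 ± 0.19 and 0.24 ± 0.20, of 0.27 and 0.17 without wild type 4, and of 0.12 and 0.06 without knockout 1.

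Complex II, succinate dehydrogenase, is also an enzyme of the citric acid cycle and has no subunit in mitochondrial DNA. All 4 subunits had estimates above 0, with a median log2 fold change of 0.37 against -0.03 for all tested probe sets. 3 of them had an unadjusted p under 0.05 and 0 were called. The median was 0.27 without knockout 1.

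Sdhd, a membrane anchor at the coenzyme Q site, read 6969, 6554, 7154 and 8705 on wild-type arrays 1 to 4 and 13693, 10273, 10656 and 8644 on knockout arrays 1 to 4. Knockouts 1 to 3 were above all wild-type arrays, and knockout 4 lay just below wild type 4. Its means were 7345 ± 940.5 in wild type and 10817 ± 2107 in knockout (SD, n = 4 each), 1.47-fold, with a log2 fold change of 0.55 ± 0.15 (limma adjusted p = 0.139). The other probe set of Sdhd gave 0.34 ± 0.18 (limma adjusted p = 0.429). Sdhc, the other membrane anchor, read 4059.7, 5075, 5285 and 5384 on wild-type arrays 1 to 4 and 6836, 6463, 6238 and 5478 on knockout arrays 1 to 4. The groups did not overlap, though the highest wild-type and lowest knockout arrays lay close, with 0.34 ± 0.13 (limma adjusted p = 0.270). In the other probe set of Sdhc the groups overlapped, with 0.14 ± 0.12 (limma adjusted p = 0.646).

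Sdhb, the iron-sulfur subunit, read 6822, 5855, 5792 and 6101 on wild-type arrays 1 to 4 and 10601, 7969.6, 7590.0 and 6454 on knockout arrays 1 to 4. Knockout 4 alone lay within the wild-type range, and the log2 fold change was 0.39 ± 0.15 (limma adjusted p = 0.280). Sdha, the flavin subunit that oxidises succinate, read 4878, 5599, 7258 and 6865 on wild-type arrays 1 to 4 and 10006, 7596, 7345 and 6558 on knockout arrays 1 to 4. Its wild-type arrays 1 and 2 were lower than 3 and 4, and the log2 fold change was 0.36 ± 0.17 (limma adjusted p = 0.361). Within replicates 1 and 2 it was 0.74 and within replicates 3 and 4 it was -0.02, a difference of -0.76 ± 0.24 (limma interaction, adjusted p = 0.485).

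Complex III passes electrons from reduced coenzyme Q to cytochrome c. All 9 subunits had estimates above 0, with a median log2 fold change of 0.36. At an unadjusted p under 0.05 there were 5, the knockout arrays were all higher for 4, and 0 were called. The core subunits (Cyc1, Uqcrc1, Uqcrc2 and Uqcrfs1) had a median of 0.32 and the 5 small accessory subunits one of 0.36. Without knockout 1 the median was 0.23, as it was after quantile normalization.

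Uqcrfs1, the Rieske iron-sulfur protein, had the smallest p of the members. Its signal was 6589.5, 7181, 5783 and 6851 on wild-type arrays 1 to 4 and 9645, 9181, 8933 and 9135 on knockout arrays 1 to 4. The 4 knockout arrays lay close together, and all were above the wild-type arrays. The means were 6601 ± 597 in wild type and 9223 ± 301 in knockout (SD, n = 4 each), 1.40-fold, with a log2 fold change of 0.49 ± 0.10 (limma adjusted p = 0.0826). It was 0.45 in replicates 1 and 2 and 0.52 in replicates 3 and 4, and over all alternatives it ran from 0.40 to 0.53 with limma adjusted p-values of 0.0575 to 0.317.

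Uqcr10, a small accessory subunit, read 5904, 5659.7, 5849.9 and 5789 on wild-type arrays 1 to 4 and 10421, 8164, 7946 and 6407 on knockout arrays 1 to 4. The wild-type arrays spanned little and the knockout arrays were spread above them, with 0.48 ± 0.14 (limma adjusted p = 0.166), and its other 2 probe sets gave 0.60 and 0.66. Cyc1, the haem protein cytochrome c1, read 8931, 8447, 9250.4 and 10389 on wild-type arrays 1 to 4 and 14322, 10973, 12115 and 10796 on knockout arrays 1 to 4. The groups did not overlap, with a log2 fold change of 0.38 ± 0.12 (limma adjusted p = 0.194). Uqcrc2, a core protein on the matrix side, read 7339, 7615, 7592 and 7518 on wild-type arrays 1 to 4 and 10446, 9076, 9105 and 7747 on knockout arrays 1 to 4. Its groups did not overlap either, with 0.27 ± 0.11 (limma adjusted p = 0.310). In the other probe set of Uqcrc2 they overlapped, with 0.13 ± 0.13 (limma adjusted p = 0.704).

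Uqcrb, which binds near the coenzyme Q site, had the smallest estimate of the complex at 0.06 ± 0.10 (limma adjusted p = 0.812). Its signal of 21952 to 25287 in wild type and 22038 to 28951 in knockout overlapped, and a second probe set gave 0.26. Cycs, the soluble electron carrier cytochrome c, read 15259, 13907, 13863 and 15729 on wild-type arrays 1 to 4 and 17117, 16718, 16991 and 15383 on knockout arrays 1 to 4. Knockouts 1 to 3 were higher than the wild-type arrays and knockout 4 was not, with 0.17 ± 0.09 (limma adjusted p = 0.408). Further probe sets of Cycs gave 0.19 ± 0.13 and 0.48 ± 0.15 (limma adjusted p = 0.547 and 0.190).

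**Figure D2:**
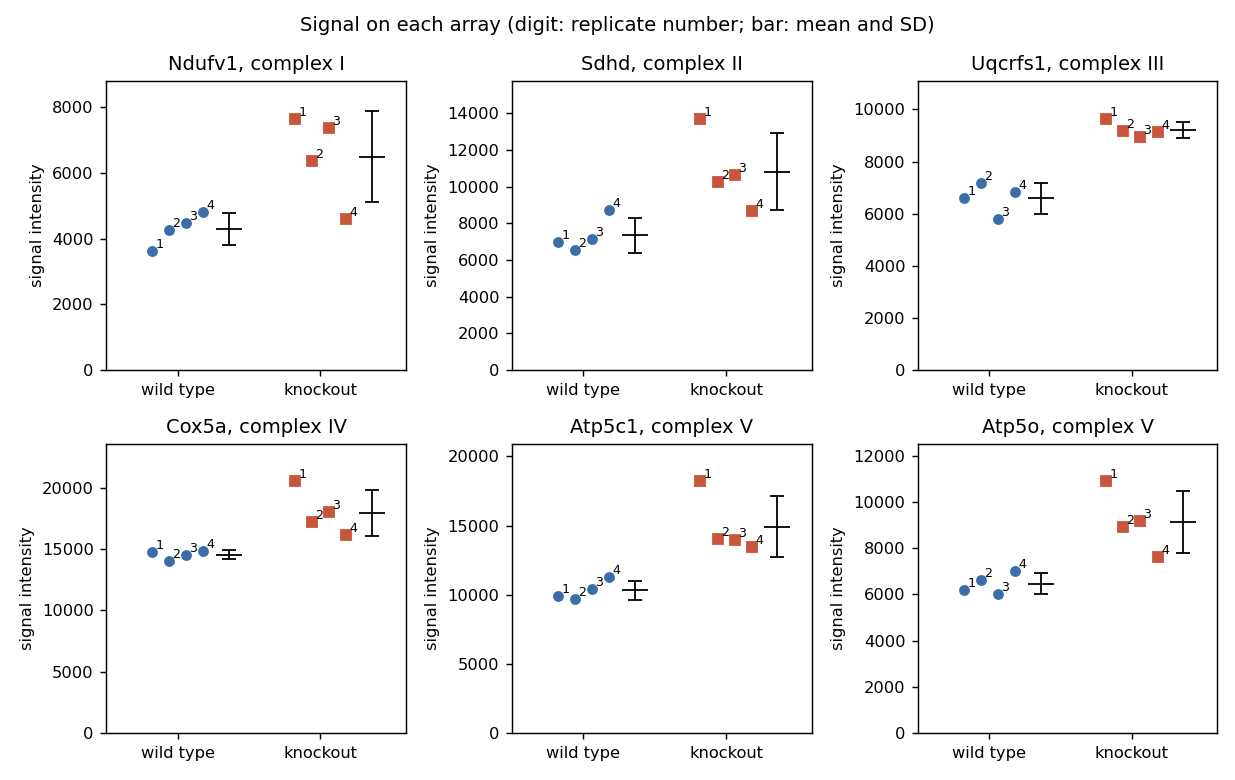
Signal intensity (linear scale from 0) of 6 members on each wild-type (circle) and knockout (square) array, with the replicate number beside each point and the mean and SD as a bar. The groups do not overlap for Uqcrfs1, Cox5a, Atp5c1 and Atp5o, and for Ndufv1 and Sdhd knockout 4 lies below wild type 4.

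Complex IV, cytochrome c oxidase, hands electrons to oxygen, and several of its nuclear subunits exist as a general form and a form of another tissue. All 11 tested members had estimates above 0, with a median of 0.14, and 2 had an unadjusted p under 0.05. 0 were called. In replicates 3 and 4 the median was 0.04 against 0.30 in replicates 1 and 2.

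Cox5a, a subunit on the matrix side, read 14744, 14048, 14568 and 14863 on wild-type arrays 1 to 4 and 20535, 17222, 18011 and 16122 on knockout arrays 1 to 4. The wild-type arrays lay within a narrow range and every knockout array was above it, with a log2 fold change of 0.30 ± 0.10 (limma adjusted p = 0.195). Cox6b1, the subunit that faces cytochrome c, read 12552, 13689, 15148 and 14648 on wild-type arrays 1 to 4 and 24151, 17719, 15887 and 14292 on knockout arrays 1 to 4. Knockout 1 was far above the other arrays and knockout 4 lay among the wild type, with 0.34 ± 0.15 (limma adjusted p = 0.344). Its log2 fold change was 0.66 in replicates 1 and 2 and 0.02 in replicates 3 and 4, a difference of -0.64 ± 0.23 (limma interaction, adjusted p = 0.490).

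Cox4i1, the general form of the subunit through which ATP regulates the enzyme, read 13118, 11287, 13327 and 12488 on wild-type arrays 1 to 4 and 18989, 14415, 14655 and 13087 on knockout arrays 1 to 4, with 0.27 ± 0.12 (limma adjusted p = 0.349). Only knockout 4 lay within the wild-type range. Its counterpart Cox4i2, the lung and hypoxia form, missed the minimum at 130.5 to 206.5. Cox8a gave 0.25 ± 0.14 (limma adjusted p = 0.429), while its muscle counterpart Cox8b read 9.1 to 39.2 and missed the minimum. Cox8c, the testis form, gave 0.07 ± 0.14 (limma adjusted p = 0.854), with wild type 1 at 1272 and the other wild-type arrays at 944.4 to 962.7. Cox6a1 gave 0.12 ± 0.11 (limma adjusted p = 0.652), and its other probe set gave 0.31 ± 0.12 (limma adjusted p = 0.281). The muscle counterpart of Cox6a1, Cox6a2, at 95.3 to 286.9 with 3 arrays at or above 200, was not tested.

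Cox6b2, the testis counterpart of Cox6b1, read 1023, 999.9, 1170.3 and 1242 on wild-type arrays 1 to 4 and 868.3, 1179, 1213 and 1549 on knockout arrays 1 to 4. Here knockout 1 was the lowest array and knockout 4 the highest, where knockout 1 was the highest of the 8 for 59 of the 75 members, and the log2 fold change was 0.09 ± 0.18 (limma adjusted p = 0.855). Cox7a2, the general form of subunit 7a, read 20678, 19174, 20297 and 20739 on wild-type arrays 1 to 4 and 27090.4, 22082, 20779.8 and 20058 on knockout arrays 1 to 4, with 0.14 ± 0.10 (limma adjusted p = 0.568). Ndufa4, named for complex I and now placed in complex IV, had the smallest estimate of the complex at 0.04 ± 0.12 (limma adjusted p = 0.907).

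Cox7a1, the heart and muscle form of subunit 7a, missed the minimum because only 2 arrays, both knockout, reached 200. It read 126.6, 103.7, 110.5 and 128.1 on wild-type arrays 1 to 4 and 699.2, 312.9, 180.2 and 132.3 on knockout arrays 1 to 4, with means of 117 ± 12.0 and 331 ± 257 (SD, n = 4 each), 2.82-fold. Every knockout array was above every wild-type array, as was the case for 2.56% of all 45037 probe sets when no minimum was set, but the knockout arrays differed more among themselves than the lowest of them did from the wild type. With no minimum its log2 fold change was 1.11 ± 0.42 (limma adjusted p = 0.439). Of 8 skeletal and heart muscle markers 1, Mylpf, was tested (0.40 ± 0.25), the others missed the minimum, and the summed signal of the list was 590.5 to 745.6 in wild type and 559.9 to 788.2 in knockout. Of 4 brown fat markers 3 had a probe set and 0 were tested, with a summed signal of 21.3 to 69.5 in wild type and 60.2 to 87.5 in knockout. Cox7b2 (4.5 to 27.4), Cox7c (76.5 to 166.8) and, in complex I, Ndufb4 (69.2 to 191.7) also missed the minimum. For Cox7c and Ndufb4, brighter probe sets also name near-identical genes and were not used. Their low signals here therefore do not show that these transcripts are scarce.

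**Figure D3:**
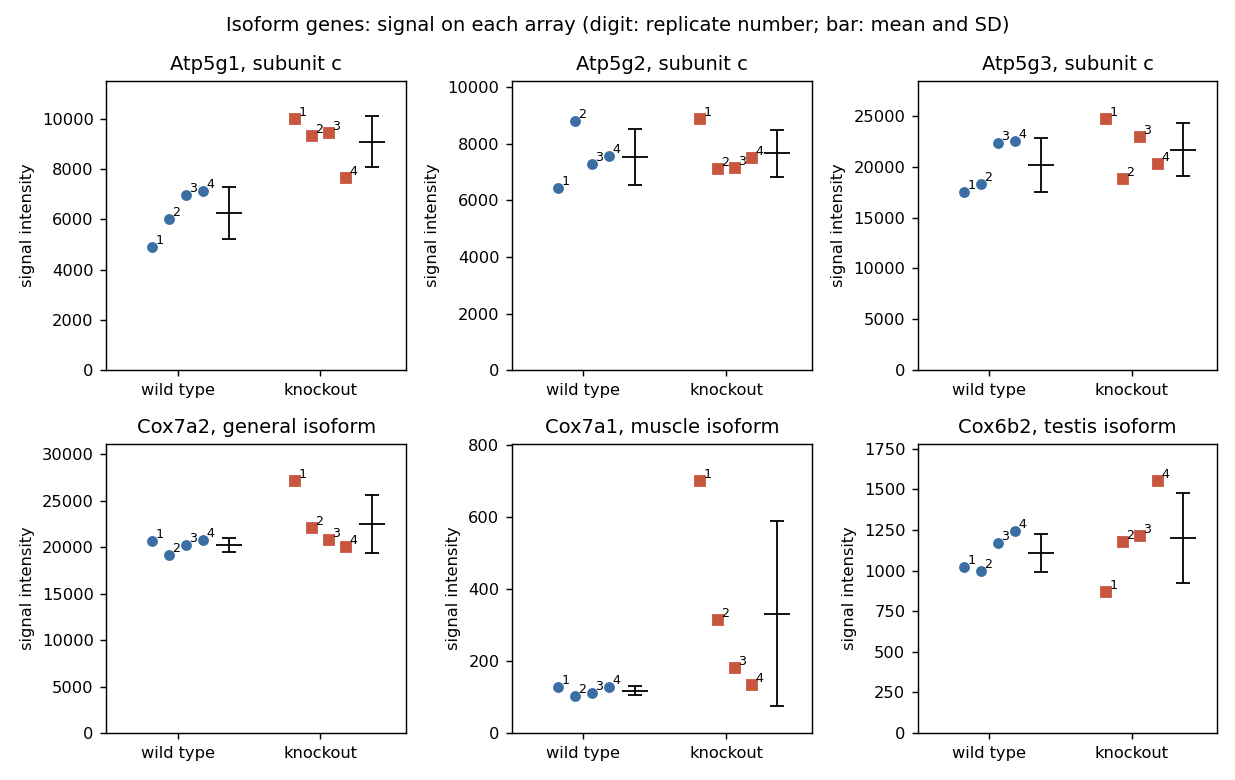
Signal intensity (linear scale from 0) of the 3 genes of ATP synthase subunit c and of 3 complex IV members on each wild-type (circle) and knockout (square) array, with the replicate number beside each point and the mean and SD as a bar. The groups do not overlap for Atp5g1 and for Cox7a1, whose knockout arrays run from 132.3 to 699.2, and overlap for the other 4.

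Complex V, the ATP synthase, has a catalytic F1 head, a ring of c subunits in the membrane and a peripheral stalk between them. All 17 members had estimates above 0, with a median of 0.22. At an unadjusted p under 0.05 there were 7, the groups did not overlap for 4, and 0 were called. By position, the median was 0.23 for the 5 subunits of the head, 0.33 for the 4 of the peripheral stalk, 0.11 for the 3 c ring genes and 0.17 for the 5 accessory subunits of the membrane part. Without knockout 1 the c ring genes had a median of 0.04, the membrane accessory subunits 0.10 and the whole complex 0.12, and after quantile normalization that of the complex was 0.11.

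Atp5c1, the gamma shaft that turns inside the head, read 9880.4, 9708, 10386 and 11269 on wild-type arrays 1 to 4 and 18192, 13998, 13967 and 13472 on knockout arrays 1 to 4. The lowest knockout array was above the highest wild-type array, and knockout 1 stood far above the other knockouts. Its means were 10311 ± 700.3 in wild type and 14907 ± 2203 in knockout (SD, n = 4 each), 1.45-fold, with a log2 fold change of 0.52 ± 0.12 (limma adjusted p = 0.0917). Over all alternatives this ran from 0.34 to 0.70, with limma adjusted p-values of 0.0542 to 0.268. The catalytic beta subunit Atp5b and its partner alpha, Atp5a1, gave 0.23 ± 0.10 and 0.22 ± 0.15 (limma adjusted p = 0.309 and 0.533), and their highest array was knockout 3. Further probe sets of Atp5a1 gave 0.30 and 0.54, the latter at a mean signal of 387.8.

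Atp5o, the stalk subunit that sits on top of the head, read 6195, 6640.0, 5999 and 7012 on wild-type arrays 1 to 4 and 10888, 8904, 9165 and 7619 on knockout arrays 1 to 4. The groups did not overlap, with a log2 fold change of 0.49 ± 0.13 (limma adjusted p = 0.119). Atp5h, subunit d of the same stalk, read 9625, 10648, 11331 and 10849 on wild-type arrays 1 to 4 and 16956, 14243, 14401 and 11439 on knockout arrays 1 to 4. Knockout 4 was just above the highest wild-type array, with 0.41 ± 0.13 (limma adjusted p = 0.178), and the other probe set of Atp5h gave 0.30. The other stalk members Atp5pb and Atp5j gave 0.24 ± 0.11 and 0.14 ± 0.11.

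Atp5g1, Atp5g2 and Atp5g3 encode the same mature subunit c behind different import signals. Atp5g1 read 4905, 6005, 6969 and 7121 on wild-type arrays 1 to 4 and 9996, 9294, 9439 and 7636 on knockout arrays 1 to 4. All knockout arrays were higher, and the wild-type arrays of replicates 1 and 2 were lower than those of 3 and 4. Its log2 fold change was 0.55 ± 0.14 (limma adjusted p = 0.126), 0.83 in replicates 1 and 2 and 0.27 in replicates 3 and 4, a difference of -0.56 ± 0.23 (limma interaction, adjusted p = 0.493). Atp5g2 read 6423, 8808, 7265 and 7570.1 on wild-type arrays 1 to 4 and 8878, 7116, 7128 and 7505 on knockout arrays 1 to 4. Its groups overlapped over most of their range, with 0.03 ± 0.13 (limma adjusted p = 0.942), the smallest estimate of the complex. Atp5g3 gave 0.11 ± 0.12 (limma adjusted p = 0.733), with wild type at 17543 to 22514 and knockout at 18844 to 24721. Whether the fold changes of the 3 genes differ from each other was not tested. Cox7a2l gave 0.36 ± 0.26 (limma adjusted p = 0.567), and 0.13 without knockout 1.

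The knockout arrays differed among themselves. The median deviation of the 75 members from the wild-type mean (log2) was 0.49 on knockout 1, 0.25 on knockout 2, 0.21 on knockout 3 and 0.01 on knockout 4, against -0.06, -0.03, 0.01 and 0.01 for all tested probe sets, and it was -0.05 to 0.03 on the wild-type arrays. Knockout 1 was the highest of the 8 arrays for 59 of the 75 members, against 19.9% of all tested probe sets, and knockout 4 was the lowest knockout for 65. The share of all tested probe sets with knockout 4 as the lowest knockout was not taken. Knockout 4 was above the highest wild-type array for 15 of the 75 members, near the 19.5% of all tested probe sets. Knockout 3 was above it for 44 members (21.5% of all tested), knockout 2 for 37 (21.8%) and knockout 1 for 65 (25.9%). Knockout 1 was at the top of the knockout arrays and knockout 4 at the bottom in the median of each of the 5 complexes. On knockout 1 the medians were 0.75 for complex II, 0.55 for III, 0.49 for I, 0.47 for IV and 0.43 for V, and on knockout 4 they ran from -0.07 for complex I to 0.13 for complex II. Knockout 1 is also the array with the highest 3′ to 5′ ratios of pyruvate carboxylase and actin, and the part of RNA length in these values was not tested.

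**Figure D4:**
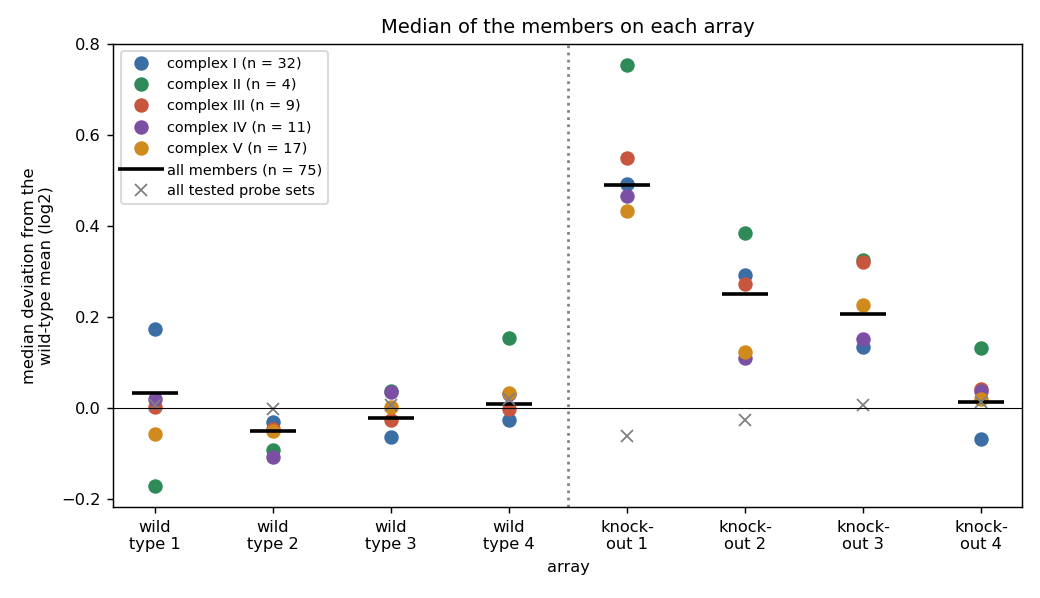
Median over members of the deviation from the wild-type mean (log2) on each of the 8 arrays, for each complex (points), the 75 members (line) and all tested probe sets (cross). The members' median is 0.49 on knockout 1 and 0.01 on knockout 4, and the median of all tested probe sets stays between -0.06 and 0.02 on every array.

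Within replicates 1 and 2 the members' median log2 fold change was 0.31, with 71 of 75 above 0, and within replicates 3 and 4 it was 0.13, with 61 above 0. All tested probe sets had medians of -0.05 and -0.00, with 45.2% and 49.9% above 0. The fold change was the larger in replicates 1 and 2 for 62 of the 75 members, a count for which no share over all tested probe sets was taken. The limma interaction called 0 members and 0.00981% of all tested probe sets, and Sdha, Cox6b1 and Atp5g1 had an unadjusted interaction p under 0.05, where 3.96% of all tested probe sets had one with a smaller value in replicates 3 and 4. Complex II had medians of 0.64 and 0.18, complex III of 0.40 and 0.22, complex I of 0.29 and 0.10, complex IV of 0.30 and 0.04, and complex V of 0.27 and 0.19. With replicates 1 and 2 against 3 and 4 as a block, 0 members were called, where 0.505% of all tested probe sets were called higher and 0.397% lower. Without wild type 4, the array that goes against its label, the medians were 0.17 for complex I, 0.40 for II, 0.30 for III, 0.16 for IV and 0.20 for V, and 0 members were called.

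**Figure D5:**
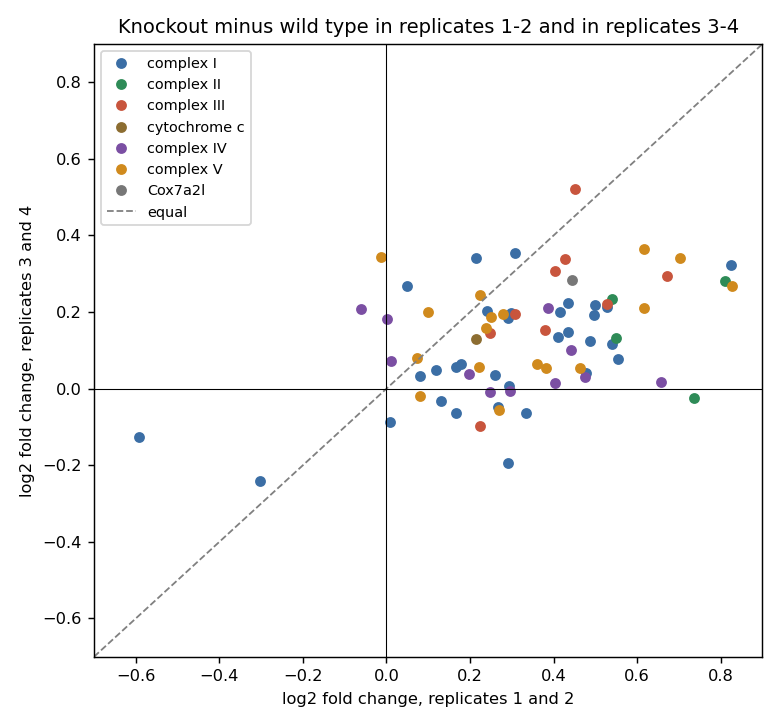
Log2 fold change, knockout minus wild type, of each of the 75 tested members within replicates 1 and 2 (horizontal) and within replicates 3 and 4 (vertical), coloured by complex, with the line of equality dashed. For 62 members the horizontal value is the larger, and Uqcrfs1 (0.45 and 0.52) is the point highest on the vertical axis.

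Other probe sets of the same genes were read beside the brightest. Of 65 further tested probe sets 56 had a log2 fold change above 0, with a median of 0.23, 18 had an unadjusted p under 0.05 and 0 were called. Of the 43 members with more than 1 tested probe set, 7 had estimates of both signs. These were Cox5b (-0.09 to 0.24), Ndufa5 (-0.06 to 0.05), Ndufa7 (-0.12 to 0.25), Ndufc2 (-0.03 to 0.06), Ndufs4 (-0.02 to 0.11), Ndufs8 (-0.07 to 0.20) and Uqcrq (-0.09 to 0.20). The tested members lie on 19 chromosomes.

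Genes that build, supply or control the chain were read from lists beside the subunits. Of 46 tested assembly factors 23 had estimates above 0 (median -0.00), and 0 were called. By smallest p these were led by Nubpl, which delivers iron-sulfur clusters to complex I, and Cox10, which works in haem A synthesis for complex IV. Nubpl read 731.8, 610.3, 677.8 and 652.8 on wild-type arrays 1 to 4 and 459.2, 481.7, 478.5 and 490.4 on knockout arrays 1 to 4, with every knockout array lower and a log2 fold change of -0.47 ± 0.12 (limma adjusted p = 0.126). Cox10 gave 0.60 ± 0.18 (limma adjusted p = 0.175).

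Of 22 tested regulators of respiratory chain genes and of mitochondrial DNA 11 had estimates above 0 (median -0.00), and 0 were called. Ppargc1a, the coactivator named above, read 478.4, 263.3, 290.9 and 900.6 on wild-type arrays 1 to 4 and 1868, 1222, 1168 and 702.3 on knockout arrays 1 to 4. Knockouts 1 to 3 were above all wild-type arrays and knockout 4 was below wild type 4, with a log2 fold change of 1.42 ± 0.38 (limma adjusted p = 0.134). Tfb1m, a methyltransferase of the mitochondrial ribosome, gave -0.58 ± 0.16 (limma adjusted p = 0.137).

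Of 20 tested genes of coenzyme Q synthesis and of other enzymes that pass electrons to it 13 had estimates above 0 (median 0.18), 0 were called higher and 1, Gpd2, was called lower. Gpd2 read 971.8, 2302, 1409 and 2542 on wild-type arrays 1 to 4 and 320.0, 603.2, 490.8 and 574.9 on knockout arrays 1 to 4. It fell from 1806 ± 739.8 to 497 ± 127 (SD, n = 4 each), with a log2 fold change of -1.77 ± 0.31 (limma adjusted p = 0.0488), and all knockout arrays were below all wild-type arrays. The call was lost, at limma adjusted p-values of 0.0872 to 0.173, when wild type 2, 3 or 4 or knockout 1, 2 or 3 was left out. With all 8 arrays it was also lost with no intensity trend (limma adjusted p = 0.0775), with no signal minimum (0.0868), with a minimum of 100 (0.0632) and with a pseudocount of 1 (0.0506). Coq8b, a kinase-like protein of coenzyme Q synthesis, gave 0.44 ± 0.13 (limma adjusted p = 0.182).

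Of 10 tested genes of ATP and ADP transport and of subunits outside the symbol rule 8 had estimates above 0 (median 0.23), and 0 were called. Slc25a4, a carrier that exchanges ATP for ADP across the inner membrane, read 6671, 5673, 5899 and 10252 on wild-type arrays 1 to 4 and 16341, 12893, 14550.1 and 11639 on knockout arrays 1 to 4. The groups did not overlap, with a log2 fold change of 0.99 ± 0.19 (limma adjusted p = 0.0612), and its relative Slc25a5 gave 0.32 ± 0.12 (limma adjusted p = 0.260). Of 31 tested genes of mitochondrial import, chaperones and membrane fusion 22 had estimates above 0 (median 0.11), and 0 were called. Mfn1, which fuses outer membranes, read 1331, 1351, 1296 and 1315 on wild-type arrays 1 to 4 and 2166, 2042, 2239.8 and 1726 on knockout arrays 1 to 4, with all knockout arrays higher and 0.61 ± 0.13 (limma adjusted p = 0.0794), and Timm9 gave 0.42 ± 0.16 (limma adjusted p = 0.269).

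Markers of the cell types of newborn liver were read as lists, and 0 markers were called in any. Of 9 tested hepatocyte markers 8 had estimates above 0 (median 0.08), with medians of 0.32 in replicates 1 and 2 and -0.15 in replicates 3 and 4, and a summed signal of 156680 to 198706 in wild type and 174209 to 226050 in knockout. Of 8 tested erythroid markers 1 was above 0 (median -0.11), with -0.48 in replicates 1 and 2 and 0.22 in replicates 3 and 4, and a summed signal of 50712 to 63011 in wild type and 44424 to 67089 in knockout. On knockouts 1 to 4 the erythroid median deviated from the wild-type mean by -0.55, -0.34, 0.05 and 0.42 (log2), where the respiratory chain members deviated by 0.49, 0.25, 0.21 and 0.01. On wild types 1 to 4 the erythroid median was 0.11, -0.07, 0.18 and -0.20, where the members stayed at -0.05 to 0.03. Lists of other cell types differed between the knockout arrays too. On knockouts 1 to 4 the hepatocyte median was 0.34, -0.05, 0.09 and -0.04. That of Kupffer cells and macrophages was 0.57, 0.00, -0.18 and -0.14, and that of granulocytes 0.01, -0.15, -0.39 and -0.29. The part of the cell makeup in the members' values was not tested. The other lists had medians of 0.08 for Kupffer cells and macrophages (6 of 10 above 0), -0.22 for granulocytes (2 of 8), -0.04 for endothelial cells (3 of 7), -0.44 for stellate cells and fibroblasts (1 of 6), -0.06 for cholangiocytes (1 of 2) and -0.48 for lymphocytes (0 of 2).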

How the data were processed

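Per the labels, the authors deposited signal intensity that GCOS 1.2 computed with its defaults and scaled to a target of 500, for 4 wild-type and 4 knockout livers. The values are linear and were not rescaled. Probe sets were named from the platform annotation joined to a RefSeq gene table (GRCm38.p6), by which 34945 probe sets name 1 gene, 932 more than 1, and 9160 none. Only those naming 1 gene were used, so members whose probe sets also name a near-identical copy are read through the rest, and 9 such probe sets were left out.

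Log2(signal + 16) was compared with limma 3.58.1 in R 4.3.3 (lmFit, eBayes with an intensity trend, two-sided) for the 20395 probe sets that reached 200 on 4 or more of the 8 arrays, with Benjamini-Hochberg adjustment over all of them and a threshold of 0.05. The comparison was also run on simulated independent normal values. These hold no shift of a whole array, no replicate difference and no link between members, so they do not cover those features of the data. Values are mean ± SD of the signal, and log2 fold changes are knockout minus wild type ± limma's standard error (median 0.19 over the tested probe sets). Folds are ratios of mean signals. The number of arrays limits the precision. Signals of different probe sets were not compared as levels. Each array is 1 pup, so p-values measure the spread between pups.

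Named with values were, in each complex, the 4 members with the smallest p and the one with the lowest fold change, the isoforms of other tissues with their counterparts, the subunit c genes, members that missed the minimum, members with probe sets of both signs, and in each other list the 2 members with the smallest p. The members, lists and tests were chosen with earlier results of these data known. Atp5md and Atp5mpl were placed among the membrane accessory subunits after their values were known. Marker and gene lists were read through the brightest tested probe set per gene. Alternatives were other pseudocounts, minimums, scalings and limma settings, all probe sets of a gene averaged, blocks, the replicate pairs alone and each array left out. Summaries used pandas 2.3.3 in Python 3.11.15, and plots used matplotlib 3.10.9.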

Additional observations from a re-analysis of the deposited data

Results flagged for a closer look

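Of 84 groups of 4 arrays checked, for the named members and for the medians of each complex, 4 had an array that stood apart from the other 3 by Dixon's test, where chance gives about 1 in 20. For Atp5c1, the gamma subunit of ATP synthase, knockout 1 read 18192 and the other knockouts 13472 to 13998. For Cox8c, the testis form of a complex IV subunit, wild type 1 read 1272 and the other wild-type arrays 944.4 to 962.7. The median deviation of complex I from the wild-type mean was 0.17 (log2) on wild type 1 and -0.06 to -0.03 on the other wild-type arrays. That of complex IV was -0.11 on wild type 2 and 0.02 to 0.04 on the others.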

How the results depend on the processing

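Over 22 alternatives the count of members called was 0, except without knockout 4, where Ndufv1 was called. Leaving out each array gave 0 to 1 members called higher and 0 called lower, with members' medians of 0.16 to 0.31 (0.11 to 0.33 for complex I, 0.27 to 0.46 for II, 0.23 to 0.43 for III, 0.12 to 0.20 for IV and 0.12 to 0.28 for V). The complex II median was 0.64 in replicates 1 and 2 alone. Of 792 values of 36 named members, 767 kept the sign, and the 25 that did not lay in 13 members, among them Sdha, Atp5g2, Atp5g3, Uqcrb and Ndufa4. The count of all probe sets called, 61, was 18 with no intensity trend, 21 with no minimum, 22 with a minimum of 100, 184 with replicates 1 and 2 against 3 and 4 as a block, 154 with that block and without wild type 4, 30 in replicates 1 and 2 alone and 2 in replicates 3 and 4 alone. It was 2 to 334 when an array was left out, with 2 without wild type 2 or 3 or knockout 2 or 3, 6 without wild type 4, 22 without knockout 1 and 334 without knockout 4. The cause was not tested. Same-numbered arrays of the groups had correlations of their deviations of 0.22, 0.40, 0.34 and 0.05, and not every array correlated best with its own number. These values cannot decide whether the numbers pair the livers, because replicates 1 and 2 also differ from 3 and 4 in control ratios. With the replicate number as a block, 56 probe sets and 0 members were called, and the members' median was 0.24. With 4 arrays a group, no member's difference was called in the comparison of all arrays. The median standard error was 0.19 over all tested probe sets, and the members' standard errors ran from 0.09 for Cycs to 0.26 for Cox7a2l.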
